A study of Mus musculus with 8 samples.

Results

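The regions described here are stretches of open chromatin close to an annotated transcription start site that were listed in mouse embryonic fibroblasts (MEFs) and in no other cell population of the study. They were found by joining the peaks of the 4 deposited lists that lay within 400 bp of each other and keeping the joined regions that held a MEF peak, held no peak of the other 3 lists and came within 5 kb of a start site of the GENCODE mouse annotation (mm10). There were 7496 such MEF-only promoter-near regions among 101701 regions in all (7.37%) and among 37172 regions within 5 kb of a start site (20.2%). Each contained exactly 1 MEF peak. The regions were chosen by these listed peaks, so their presence in the MEF list and absence from the others is the rule itself and not a finding.

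ATAC-seq, which marks accessible DNA through adapters inserted by a transposase, was run on 8 libraries from 4 groups of 2. The groups were uninfected wild-type MEFs, such fibroblasts 5 and 10 days after retroviral delivery of Pou5f1 (OCT4), Sox2, Klf4 and Myc (together OSKM), and wild-type embryonic stem cells (ESCs). Cells of both OSKM days also carried a FLAG control vector, had no knockout, and grew in ESC medium to which vitamin C was added. They are labelled as intermediate reprogrammed cells, and no purification is named. The MEFs had been isolated from mouse embryos. The strain was C57BL/6J-OG2 for uninfected MEFs, for infected cells of both days and for ESC replicate 2, and C57Bl6J for ESC replicate 1, where OG2 stands for a green fluorescent reporter driven by Pou5f1 sequence. Strain thus differed within the ESC group and in no other group. For the ESCs the sources differ. The study's methods describe OG2 ESCs for this assay, grown on gelatin with 2i/L, a medium with inhibitors of GSK3 and MEK and with LIF, whereas the labels give a general description with feeder fibroblasts and serum. The medium of the infected cells was another, so medium and cell type cannot be told apart in a comparison with the ESC list. For MEFs the study's methods describe a serum medium that names neither LIF nor vitamin C. Infection, control vector, medium, vitamin C and day thus differed together between the MEF list and the OSKM lists and cannot be told apart.

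Only 1 peak list was deposited for each group, with the 2 replicates already combined. The MEF list held 56514 peaks, the ESC list 48486, and the OSKM lists 36219 (day 5) and 35226 (day 10). The number of reads behind them is unknown. A region absent from a list is one where no peak was listed, which is not the same as closed chromatin, and more regions can be MEF-only because the MEF list was the longest. When each list was cut to its 35226 highest-scoring peaks, 3807 MEF-only promoter-near regions were found in place of 7496. No test over samples was possible. Intervals below are 95% intervals (Wilson for a share, Newcombe for a difference of shares) and cover counting error only. Intervals over genes treat genes as independent, although neighbouring genes can share a region.

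The DNA at the start site of an active gene is usually free of nucleosomes, and such promoters are often open in many cell types. Cell-type-specific open chromatin is more often found in enhancers, which may lie in introns or between genes and are bound by transcription factors that recognise short motifs. In fibroblasts the factors include AP-1, a dimer of FOS and JUN family proteins that binds TGAGTCA, TEAD proteins, which act with YAP in the Hippo pathway, and RUNX proteins. During reprogramming, fibroblast enhancers are known to lose accessibility while sites bound by pluripotency factors gain it.

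The DNA of 7 of the regions is shown here because these lie beside genes that mark fibroblasts or their matrix, cytoskeleton and signalling, and because each holds the AP-1 motif on which the sequence results below turn. They are the 200 bp around the midpoint of the MEF peak, read 5′ to 3′ on the + strand of the RefSeq GRCm38 (mm10) sequence, with capitals marking matches to TGAGTCA on either strand.
Nfib, chr4:82702920-82703119: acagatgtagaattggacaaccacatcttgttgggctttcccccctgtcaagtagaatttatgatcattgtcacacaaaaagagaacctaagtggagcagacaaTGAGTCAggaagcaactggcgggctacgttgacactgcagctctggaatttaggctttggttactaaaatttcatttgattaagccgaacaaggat
Nfic, chr10:81407691-81407890: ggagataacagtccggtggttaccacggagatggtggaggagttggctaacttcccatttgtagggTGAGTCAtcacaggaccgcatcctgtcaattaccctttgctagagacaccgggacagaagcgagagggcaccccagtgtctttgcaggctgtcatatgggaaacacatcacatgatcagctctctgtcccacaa
Col16a1, chr4:130050506-130050705: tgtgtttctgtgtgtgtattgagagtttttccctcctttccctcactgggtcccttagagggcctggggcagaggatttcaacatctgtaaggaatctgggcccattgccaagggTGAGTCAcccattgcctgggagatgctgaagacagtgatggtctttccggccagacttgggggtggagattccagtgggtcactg
Smad3, chr9:63746127-63746326: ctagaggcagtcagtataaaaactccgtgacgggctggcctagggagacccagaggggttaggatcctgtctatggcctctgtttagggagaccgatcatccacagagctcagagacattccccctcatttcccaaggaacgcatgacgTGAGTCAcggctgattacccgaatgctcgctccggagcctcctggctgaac
Cnn3, chr3:121449485-121449684: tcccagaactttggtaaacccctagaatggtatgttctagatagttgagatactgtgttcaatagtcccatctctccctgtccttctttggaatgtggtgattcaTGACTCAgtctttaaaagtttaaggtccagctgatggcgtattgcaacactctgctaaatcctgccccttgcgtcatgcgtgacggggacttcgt
Fap, chr2:62563060-62563259: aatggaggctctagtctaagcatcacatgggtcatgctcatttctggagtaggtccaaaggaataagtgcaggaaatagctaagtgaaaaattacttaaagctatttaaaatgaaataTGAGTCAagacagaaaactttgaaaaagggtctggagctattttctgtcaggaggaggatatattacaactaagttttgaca
Thy1, chr9:44039845-44040044: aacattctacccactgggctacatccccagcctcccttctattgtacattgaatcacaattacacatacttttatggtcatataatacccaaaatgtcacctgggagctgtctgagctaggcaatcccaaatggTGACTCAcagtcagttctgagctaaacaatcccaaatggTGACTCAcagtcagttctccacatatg

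Nfib and Nfic encode nuclear factor I proteins, transcription factors of mesenchymal cells. Distances here and below run from the nearer edge of the whole region and not from the window. The Nfib window lay in an intron, in a region 2362 bp downstream of the nearest Nfib start site. The peak that holds it was 737 bp wide with a fold enrichment of 3.94. The Nfic window lay in an intron within a 670 bp region that covered a Nfic start site, with a fold enrichment of 2.90. Col16a1 encodes a fibril-associated collagen. Its window lay in an intron, in a region 2239 bp downstream of a start site with a fold enrichment of 2.86. Smad3 encodes a signal transducer of TGF-β receptors. Its window lay in an intron, in a region 2650 bp upstream of the nearest Smad3 start site with a fold enrichment of 2.88. Cnn3 encodes calponin 3, an actin-binding protein, and its window lay in an intron within a region over a start site, with a fold enrichment of 3.23. Fap encodes fibroblast activation protein, a membrane protease, and its window lay in an intron, in a region 246 bp downstream of a start site. Thy1 encodes the fibroblast surface protein CD90, and its window holds 2 matches. The region around this window lay 3208 bp upstream of a Thy1 start site and had a fold enrichment of 3.35. The other 6 windows hold 1 match each.

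MEF-only regions were mostly beside start sites and not on them. A start site itself lay under 1044 of the 7496 regions (13.9%, interval 13.2% to 14.7%). A further 807 lay 1 to 500 bp away, 669 lay 501 to 1000 bp away, 1382 lay 1001 to 2000 bp away and 3594 (47.9%, 46.8% to 49.1%) lay 2001 to 5000 bp away. Regions found in all 4 lists were placed differently, with 91.4% of 12068 over a start site. Promoter-near regions listed in ESCs alone resembled the MEF-only regions, with 16.5% of 7245 over a start site (ESC-only regions made up 19.5% of all promoter-near regions). Read the other way, MEF-only regions made up 6.29% of the regions over a start site (5.93% to 6.67%) and between 27.2% and 32.9% of those in each of the 4 classes of distance beyond it. Regions of all 4 lists made up 66.4% of the regions over a start site and at most 7.47% in any other distance class.

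**Figure D1:**
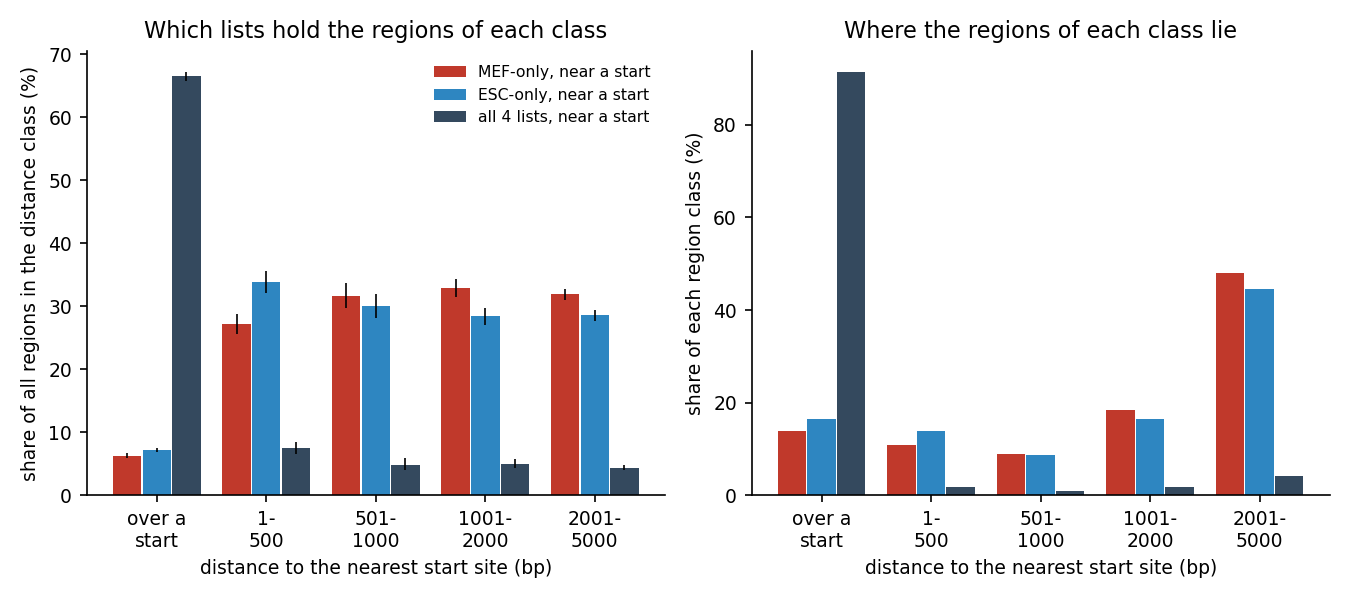
Left, share (%) of all regions in each class of distance to the nearest start site (bp) that were MEF-only, ESC-only or found in all 4 lists, with 95% Wilson intervals. Right, share (%) of the regions of each kind that fell in each distance class. The MEF-only share was 6.29% over a start site and 27.2% to 32.9% elsewhere, and 13.9% of MEF-only regions but 91.4% of the regions of all 4 lists lay over a start site.

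By their midpoint, 58.4% of MEF-only promoter-near regions lay in an intron (57.3% to 59.5%), 28.1% between genes, 7.20% in an exon of a noncoding transcript, 3.83% in an untranslated exon and 2.46% in a coding exon. Of the regions of all 4 lists, 31.2% lay in an intron, 30.2% in an untranslated exon and 13.5% in a coding exon. MEF-only regions lay on the upstream side of the nearest start site as often as downstream of it (42.9% and 43.2%).

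The start site nearest to a MEF-only region belonged to a protein-coding gene in 4084 cases (54.5%), to a long noncoding RNA in 19.9%, to a pseudogene in 12.6%, to a small RNA in 7.04% and to an unclassified transcript in 6.00%. The 12068 regions of all 4 lists had a protein-coding start nearest in 92.7%. A protein-coding start site within 5 kb was present for 4378 MEF-only regions (58.4%, 57.3% to 59.5%), for 60.6% of ESC-only regions and for 93.7% of the regions of all 4 lists. Over a start site the protein-coding share of MEF-only regions was 65.3% (682 of 1044).

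Most MEF-only regions lay farther than 2 kb from a peak of another list. The rule leaves out regions with such a peak within 400 bp, so these gaps partly follow from it. The median gap to the nearest peak of any of the other 3 lists was 7573 bp, and 976 regions (13.0%, 12.3% to 13.8%) had such a peak within 2 kb. The smallest gap was 402 bp, just above the distance at which peaks were joined. By list, 5.31% had a day 5 peak within 2 kb, 6.30% a day 10 peak and 8.80% an ESC peak. For the 22502 MEF-only regions farther than 5 kb from a start site, called distal here, the median gap was 11559 bp and 8.68% had a peak of another list within 2 kb.

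The MEF peaks of these regions were narrow and of low score within the MEF list. These values come from the list that chose the regions, so they are given without a test. Widths had a median of 559 bp, with the middle 80% between 297 and 1072 bp, and the median fold enrichment over background was 3.04 (2.43 to 4.22). The authors' score, which is 10 times the −log10 q-value of the replicate 1 peak without its decimals, had a median of 34, and 31.9% of the regions were above the median score of the MEF list (47). Distal MEF-only peaks were much alike, with a median width of 573 bp, a fold enrichment of 3.20 and a score of 36. Peaks near a start site that were shared with an OSKM day but not with ESCs had medians of 792 bp, 3.28 and 53, and MEF peaks of regions in all 4 lists had medians of 1198 bp, 3.94 and 116. A −log10 q-value below 2 was recorded for 1415 MEF-only regions (18.9%), and 239 (3.19%) were narrower than 200 bp. The lists are named as intersections, and 151 regions (2.01%) carried the name of a replicate 1 peak that also stood on an interval in another region, so their score and fold enrichment belong to a wider peak.

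**Figure D2:**
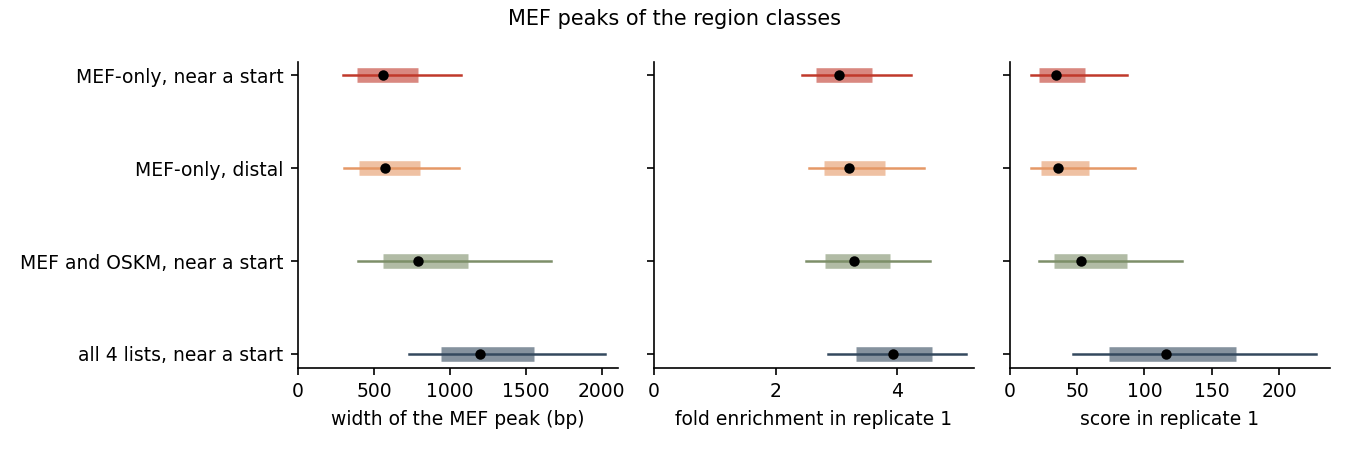
Width (bp), authors' fold enrichment and authors' score of MEF peaks in 4 kinds of region. Points are medians, thick bars the middle 50% and thin lines the middle 80% of peaks. MEF-only regions near a start site had a median width of 559 bp and a median score of 34, against 1198 bp and 116 for regions found in all 4 lists.

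The highest score of any MEF-only promoter-near region was 324, for a 1346 bp region over a start site of Susd1, which encodes a sushi domain protein, at chr4:59314840-59316185. Its fold enrichment was 4.40 and its midpoint lay in an intron. The widest region, 3069 bp at chr9:102631984-102635052, lay 3472 bp downstream of a start site of Anapc13, a subunit of the anaphase-promoting complex, and had a score of only 31. At the edge of the rule, the 3 regions just inside lay exactly 5000 bp from a start site of Gm6056, 2610206C17Rik and Serpinb2, with scores of 130, 26 and 119. The 3 just outside lay 5001, 5001 and 5002 bp away with scores of 19, 28 and 43. The 566 regions at 4501 to 5000 bp and the 624 MEF-only regions at 5001 to 5500 bp had the same median score of 33, and AP-1 shares of 25.1% and 24.0%.

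Sequence was not used by the rule. The AP-1 motif was the most frequent of the 10 motifs searched. TGAGTCA or its reverse complement TGACTCA occurred in the central 200 bp of 1684 MEF-only promoter-near regions (22.5%, 21.5% to 23.4%), in 3.17% of windows of the same length 1 kb to either side and in 11.7% of the windows of all 101701 regions. It occurred in 2.06% of regions of all 4 lists near a start site (1.82% to 2.32%), a difference of 20.4 percentage points (19.4 to 21.4). In ESC-only promoter-near regions the share was 3.63% (difference 18.8 points, 17.8 to 19.9). Regions shared by MEFs and an OSKM day but not ESCs came between, with 13.5% (difference 8.94 points, 7.29 to 10.5). Distal MEF-only regions held the motif slightly more often, in 25.0%, a difference of -2.51 points (-3.61 to -1.40). Searching each whole region in place of 200 bp gave 44.9% of MEF-only promoter-near regions with a match.

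Matches were concentrated at the midpoint of the peak. Counted in 50 bp bins over all 7496 regions, there were 73.0 matches per 1000 regions in the bin just left of the midpoint and 68.3 in the bin just right of it. The number had dropped to 38.6 and 37.5 per 1000 in the bins that reached 200 bp from the midpoint, and to 7.34 and 7.87 in the bins that reached 1000 bp. A single match was present in 1499 windows (20.0%) and 2 or more in 185 (2.47%), while 5812 (77.5%) had none.

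**Figure D3:**
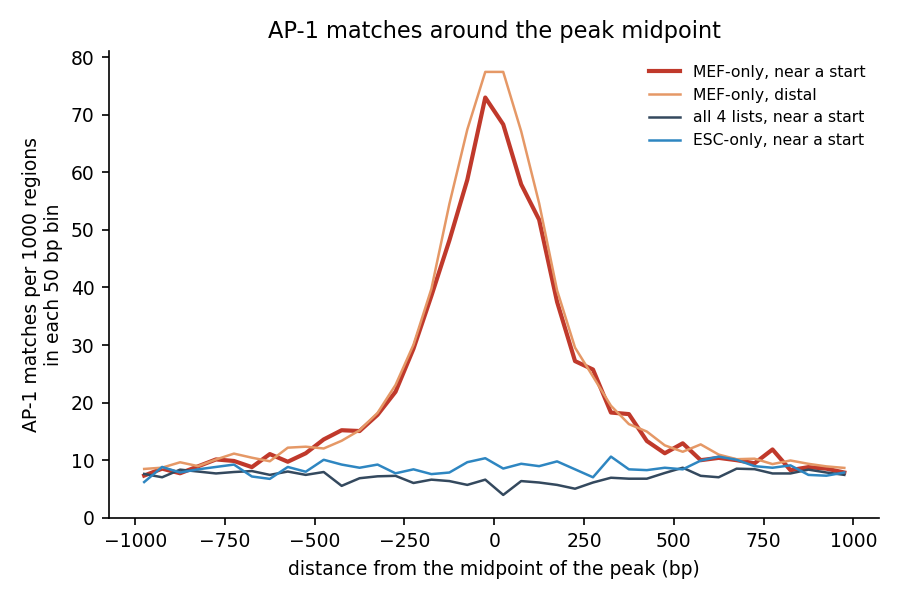
Matches to the AP-1 motif per 1000 regions in 50 bp bins, against the distance (bp) from the midpoint of the peak. Each line is a kind of region. MEF-only regions near a start site reached 73.0 per 1000 at the midpoint and 7.34 to 7.87 at 1000 bp, and the distal MEF-only line had the same shape, while the lines for ESC-only regions and for regions of all 4 lists stayed without a peak at the midpoint.

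Motifs of the other factors were searched on both strands in the same windows. The TEAD motif TGGAATG was found in 6.32% of MEF-only promoter-near regions (flanks 3.24%, all regions 5.04%). It was found in 7.21% of distal MEF-only regions, 5.29% of ESC-only regions and 1.64% of regions of all 4 lists. The RUNX motif TGTGGTT was found in 7.07% (flanks 4.95%, all regions 5.29%). KLF motifs (CCACACCC, CCACGCCC, CCCCACCC or CCCCGCCC) were found in 7.52% (flanks 6.14%, all regions 11.04%), in 25.1% of the regions of all 4 lists and in 11.7% of ESC-only regions. SOX motifs (CCTTTGT or CCATTGT) were found in 6.28%, no more than in the flanks (6.50%), and in 12.4% of ESC-only regions (difference -6.10 points, -7.04 to -5.16). The octamer ATGCAAAT bound by OCT4 was found in 1.00% (flanks 1.07%, all regions 2.15%) and the ETS motif CCGGAAGT in 0.173% (all regions 0.572%, regions of all 4 lists 2.94%). The cyclic AMP response element TGACGTCA was found in 0.307% (all regions 0.319%) and the CArG box of serum response factor in 1.07% (flanks 0.987%, all regions 1.02%). The CTCF consensus was found in 1.19% (flanks 0.107%), close to the 1.15% of all regions. At least 1 of AP-1, TEAD and RUNX was present in 2445 windows (32.6%), and 4172 (55.7%) held none of the 10 motifs. A match to so short a sequence is a description of the DNA and not of a bound factor.

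Among the MEF-only promoter-near regions themselves, the AP-1 share differed with position and with score. Over a start site it was 16.8% (175 of 1044), against 23.9% of the 4976 regions more than 1000 bp away, a difference of -7.17 points (-9.63 to -4.52). Over a start site the share was 3.19% in ESC-only regions (2.33% to 4.34%) and 1.60% in regions of all 4 lists (1.38% to 1.85%), both below the interval of the MEF-only regions there (14.6% to 19.1%). KLF motifs went the other way, at 10.6% over a start site and 6.81% beyond 1000 bp (difference 3.82 points, 1.94 to 5.94). With the regions in 4 equal groups by score, the AP-1 share was 17.4%, 20.7%, 23.9% and 27.9% from the lowest to the highest, and the highest group exceeded the lowest by 10.4 points (7.74 to 13.1). The CTCF consensus was in 2.19% of the lowest group and in 0.160% of the highest. Peak width moved with the score, with medians of 404, 481, 588 and 768 bp in the 4 groups, and its part in the motif shares was not tested. Regions with a peak of another list within 2 kb had an AP-1 share of 22.0% and the others 22.5% (difference -0.502 points, -3.19 to 2.38). The share was likewise close with and without a protein-coding start within 5 kb (22.2% and 22.9%, difference -0.743 points, -2.67 to 1.17).

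TEAD motifs were less frequent in windows that held AP-1 than in those without it, at 4.99% and 6.71% (difference -1.72 points, -2.88 to -0.421). The CTCF consensus was in 2 of the 1684 windows with AP-1 (0.119%) and in 1.50% of the 5812 without it. For RUNX the shares were 6.89% and 7.12%, with an interval of the difference that included 0 (-1.55 to 1.22).

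**Figure D4:**
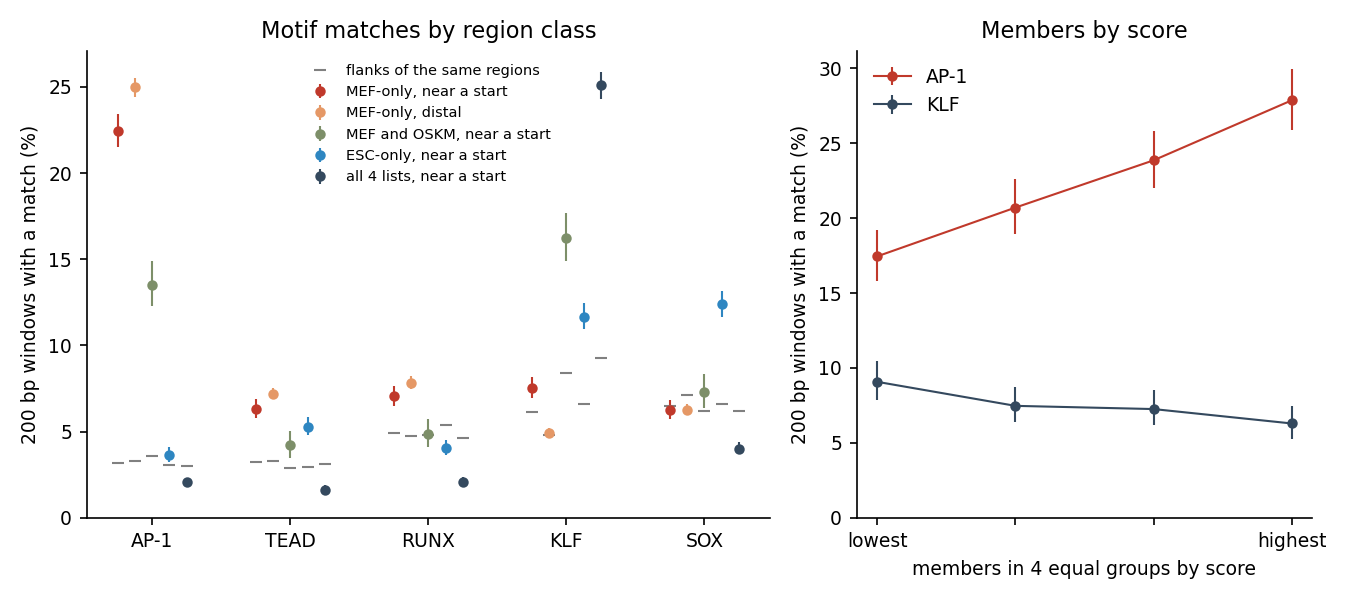
Left, share (%) of 200 bp windows with a match to 5 motifs in 5 kinds of region, with 95% Wilson intervals; grey dashes are windows 1 kb to either side of the same regions. Right, AP-1 and KLF shares (%) of MEF-only promoter-near regions in 4 equal groups by score. AP-1 was found in 22.5% of MEF-only promoter-near regions and 2.06% of regions of all 4 lists, and rose from 17.4% to 27.9% with the score.

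The DNA of MEF-only promoter-near regions was poor in CpG beside that of regions of all 4 lists and of all promoter-near regions. It was also slightly below that of all regions. Their 200 bp windows had a median GC content of 46.5%, against 44.0% for distal MEF-only regions, 49.0% for ESC-only and 64.5% for regions of all 4 lists. The ratio of observed to expected CpG had a median of 0.213, against 0.182 for distal MEF-only, 0.238 for ESC-only and 0.230 for all regions. For all promoter-near regions the median was 0.359. For regions of all 4 lists the median was 0.779. Over a start site it was 0.290 for MEF-only, 0.355 for ESC-only and 0.799 for regions of all 4 lists. CpG islands, the CpG-rich stretches at most housekeeping promoters, have high values of this ratio. Repeat-masked sequence made up 13.7% of the windows on average, 24.7% of their flanks and 22.8% of ESC-only windows.

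A MEF-only promoter-near region lay within 5 kb of a start site of 3753 of 21938 protein-coding genes (17.1%), and an ESC-only region within 5 kb of 3948 (18%). The share of genes with one was higher with the number of annotated start sites, from 8.87% of genes with 1 start site to 38.6% of genes with 11 or more. Genes with a region had 6.01 start sites on average and the others 3.90. Most genes (3069) had 1 region, 542 had 2, 106 had 3 and 36 had 4 or more. Itsn1, Nedd4l, Plcb4, Stard13, Synpo and Tcf4 had 6 each, Ablim1, Itgb5 and Tns1 had 5, and Adam12 was the first by name of 27 genes with 4. Synpo, Ablim1 and Tns1 encode actin-associated proteins, Itgb5 an integrin subunit and Tcf4 a basic helix-loop-helix factor. These are genes of many start sites, from 7 for Itgb5 and Adam12 to 58 for Tcf4.

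Genes with such a region were more often listed as open at the promoter in MEFs than in the other cells. Of the 3753 genes, 71.9% had a start site under a MEF peak, 55.1% under a day 5 peak, 60.2% under a day 10 peak and 59.7% under an ESC peak. Among the 18185 genes without one the shares were 57.5%, 51.4%, 55.1% and 55.0%. A start site under a peak in all 4 lists was present for 1800 of the 3753 (48.0%), close to the 45.8% of genes without a region. Regions over a start site are part of the MEF share, so that share partly follows from the rule, and the number of start sites per gene was not held equal.

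For 674 protein-coding genes a MEF-only region covered a start site. Of these, 331 (49.1%, 45.3% to 52.9%) had another start site under a peak of at least 1 other list, and 225 (33.4%) had a start site open in all 4 lists, so that the MEF-only start was an alternative one. The share of 33.4% was below the 46.2% of all protein-coding genes with a start site open in all 4 lists. Singled out after the values were seen, the highest-scoring of the 225 were Ubr2, an E3 ubiquitin ligase gene, with a region score of 255 and a fold enrichment of 6.53, and Mad1l1, a spindle checkpoint gene, with 247 and 5.31.

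For 206 of the 674 genes (30.6%, 27.2% to 34.1%) no peak of the other 3 lists lay within 5 kb of any start site. The highest scores among them were those of Ifi211 (211), Olfr957 (202), Oit3 (199), Ifi204 (187), Casp12 (144), Pate1 (125), Podnl1 (121), Gm11563 (116), Ifi205 (100) and Tmem204 (99). Ifi204, Ifi205 and Ifi211 belong to the interferon-inducible p200 family on chromosome 1. The Ifi211 region was 1275 bp wide with a fold enrichment of 5.22 at chr1:173912609-173913883, and the nearest peak of another list was 8809 bp away. The Ifi204 region was 967 bp wide with a fold enrichment of 6.23, and that of Ifi205 was 708 bp wide with 4.99. Casp12 encodes an inflammatory caspase, and its 1098 bp region had a fold enrichment of 5.20 with the nearest other peak 66192 bp away. Only the Pate1 region among the 10 had an AP-1 match in its central window. Olfr957 is an odorant receptor gene, and its region of 461 bp had a fold enrichment of 5.90. Odorant receptors and the p200 family are groups of similar genes, and the effect of keeping only uniquely mapped reads there was not tested.

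Gene lists chosen for fibroblasts, for ESCs and for other cell types were compared with the 17.1% of all protein-coding genes that had a MEF-only region within 5 kb. These shares are descriptions of the lists. Of all protein-coding genes, 59.98% had a start site under a MEF peak and 52.06% under a day 5 peak. For day 10 and ESC peaks the shares were 55.99% and 55.77%. The MEF share was thus the highest without any choice of genes. The MEF list was the longest, and MEF-only regions over a start site add to the MEF counts given below. Genes of the actin cytoskeleton and contraction had the highest share, 29 of 60 (48.3%), with 26.7% for ESC-only regions. Their median number of start sites was 6, and 24.9% of all genes with 6 to 10 start sites had a region. Synpo, which encodes the actin-associated protein synaptopodin, had 6 regions, the highest-scoring with a score of 169 over a start site and an AP-1 match. Csrp2, a cysteine- and glycine-rich LIM protein gene, had a region 3271 bp upstream with a fold enrichment of 3.90. Arhgap42 and Flnc, the latter encoding filamin C, had scores of 114 and 110, each with a peak of another list within 2 kb (1582 and 1647 bp away). A start site was open in all 4 lists for 23 of the 29.

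Collagen and extracellular matrix genes had a MEF-only region in 24 of 61 cases (39.3%) and an ESC-only region in 11. The named genes, by score, were Postn, the matricellular protein periostin (71), Col16a1 and the membrane metalloproteinase gene Mmp14 (both 69) and Fbln2, which encodes fibulin 2 (66). The Postn region of 1280 bp lay 2074 bp upstream of a start site with no peak of another list for 40488 bp. Postn start sites were under a peak in MEFs alone, which partly follows from the rule, since another MEF-only region covered a Postn start site. A start site was under a MEF peak for 48 of the 61 genes, under a day 5 peak for 31, a day 10 peak for 37 and an ESC peak for 28, and those of 10 were under a MEF peak and no other. Col1a1, Col1a2 and Col3a1, which encode the chains of the main fibroblast collagens and were singled out after the values were seen, had weak regions with scores of 19, 30 and 27. Only Col1a1 of these had its start sites listed in MEFs alone.

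Fibroblast surface and adhesion genes had a region in 16 of 48 cases (33.3%, ESC-only 16.7%), 6 of them over a start site. The vascular cell adhesion gene Vcam1 had the highest score of the list, 205, for a 959 bp region over a start site with a fold enrichment of 5.85. The integrin β5 gene Itgb5 had 5 regions with a highest score of 84. Fap had 2, including a 1860 bp region over a start site with a score of 64 besides the one shown above. Sdc4, a heparan sulfate proteoglycan gene, had a score of 67. Thy1 had 3 regions, 3208 bp upstream of a start site, over a start site (880 bp wide) and 888 bp downstream of one, with scores of 58, 48 and 57. Start sites of Fap and Thy1 were under a peak in MEFs and in no other list, which partly follows from their regions over a start site. A start site was open in MEFs for 46 of the 48 genes, at day 5 for 35, at day 10 for 39 and in ESCs for 33. The MEF share was also the highest among all protein-coding genes, and the excess of this list over them was not tested.

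Fibroblast and mesenchymal transcription factor genes had a region in 11 of 44 cases (25.0%), against 11.4% for ESC-only regions. The forkhead gene Foxp1 had 3 regions, with a highest score of 113 and a fold enrichment of 4.62. The nuclear factor I genes followed, with scores of 67 for Nfix, 54 for Nfib and 52 for Nfic, which had 4 regions. A MEF peak lay over a start site of 37 of the 44 genes, a day 5 peak over 28, a day 10 peak over 32 and an ESC peak over 27.

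Signalling genes came next. In the TGF-β and BMP list 17 of 55 genes had a region (30.9%, ESC-only 14.5%), among them Smad3 (score 56, 3 regions), the activin-binding follistatin-like gene Fstl3 (55) and the type I receptor gene Acvr1 (52). A pair of the Smad3 regions bore the name of the same replicate 1 peak, and so had the same score and fold enrichment. In the list of growth factors and receptor tyrosine kinases 17 of 57 had a region (29.8%, ESC-only 17.5%). The receptor genes Fgfr2 and Met had scores of 103 and 88, each with an AP-1 match, and the ligand gene Vegfd had 73. Vegfd, on the X chromosome, had its region over a start site with a fold enrichment of 4.47. Its start sites were under a peak in MEFs alone, which partly follows from that region. Genes of the AP-1, TEAD and YAP pathways, a list that also holds RUNX genes, had a region in 13 of 33 cases (39.4%, ESC-only 30.3%). Runx2 and Runx3 also stood in the cartilage and blood cell lists below. The Hippo kinase gene Lats2 had 3 with a highest score of 142, the TEAD cofactor genes Vgll4 and Vgll3 had 112 and 76 with an AP-1 match each, and Fosl1, an AP-1 subunit gene, had 71 with a TEAD match. Start sites of 26 of the 33 genes were open in all 4 lists.

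Interferon, cytokine and innate sensing genes had a region in 15 of 55 cases (27.3%, ESC-only 23.6%). Il1rl1, the interleukin 33 receptor gene, had 3, the highest-scoring with a score of 183, an AP-1 match and no peak of another list for 86378 bp. The chemokine gene Ccl2 had a 1022 bp region over a start site with a score of 88, and a peak of another list lay 1120 bp away. Start sites of Il1rl1 and Ccl2 were under a peak in MEFs alone. Both genes had a region over a start site, so this is partly the rule itself. Irf2, an interferon regulatory factor gene, had 4 regions (highest score 84) and the LIF receptor gene Lifr had 1 (58).

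Hox genes, which encode the position of a cell along the body axis, had a region in 13 of 39 cases (33.3%, ESC-only 23.1%), but only 10 regions served these 13 genes because clustered neighbours share them. The highest scores were 56 for Hoxd3, 44 for Hoxb8, 41 for Hoxc6 and 39 for Hoxa4. A start site was under a MEF peak for 21 of the 39 genes, a day 5 peak for 6, a day 10 peak for 19 and an ESC peak for 12, and only 1 gene had a start site open in all 4 lists. Senescence and p53 genes had a region in 5 of 34 cases (14.7%, ESC-only 17.65%). Scores were 65 for Pmaip1, a mediator of apoptosis, 43 for Ccnd1, 37 for Ets1 and 29 for Cbx7.

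Pluripotency genes had the lowest share of MEF-only regions of any list, 3 of 43 (6.98%), against 21 of 43 (48.8%) for ESC-only regions. The 3 genes were Lefty1, an antagonist of Nodal signalling (score 32, 2 AP-1 matches), the homeobox gene Otx2 (23) and Dppa3 (15), all below the median score of the MEF-only regions. A start site was under an ESC peak for 28 of the 43 genes, under a MEF peak for 21, a day 5 peak for 13 and a day 10 peak for 18. Ribosomal protein genes, open in all 4 lists in 61 of 70 cases, had a region in 6 (8.57%, ESC-only 10.0%). Scores were 47 for Rpl26, 41 for Rpl13, 32 for Rpl12 and 17 for Rpl27a. Epithelial genes had one in 8 of 43 cases (18.6%, ESC-only 23.3%), with 48 for the desmocollin gene Dsc2, 42 for the desmoglein gene Dsg2, 40 for the keratin gene Krt7 and 32 for Tjp1.

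Markers of other cells that a fibroblast culture can hold were examined in the same way. Endothelial markers had a region in 5 of 15 cases (33.3%, ESC-only 26.7%). Scores were 45 for Erg, 28 for Robo4, 26 for Pecam1 and 20 for Vwf. Macrophage and blood cell markers had one in 4 of 18 (22.2%, ESC-only also 22.2%), with 23 for Spi1, 21 for Runx3, 18 for Tal1 and 16 for Aif1. A start site of only 1 of the 18 was under a MEF peak. Muscle and cartilage markers had one in 6 of 18 (33.3%, ESC-only 16.7%), with 81 for Sox9, 49 for Matn1, 47 for Runx2 and 30 for Col2a1. The Sox9 region was a remnant of 51 bp, far narrower than the other regions named here. Neural and glial markers had one in 2 of 18 (11.1%, ESC-only 5.56%), with 24 for Map2 and 19 for Gfap. The part of such cells in the MEF-only regions was not tested.

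**Figure D5:**
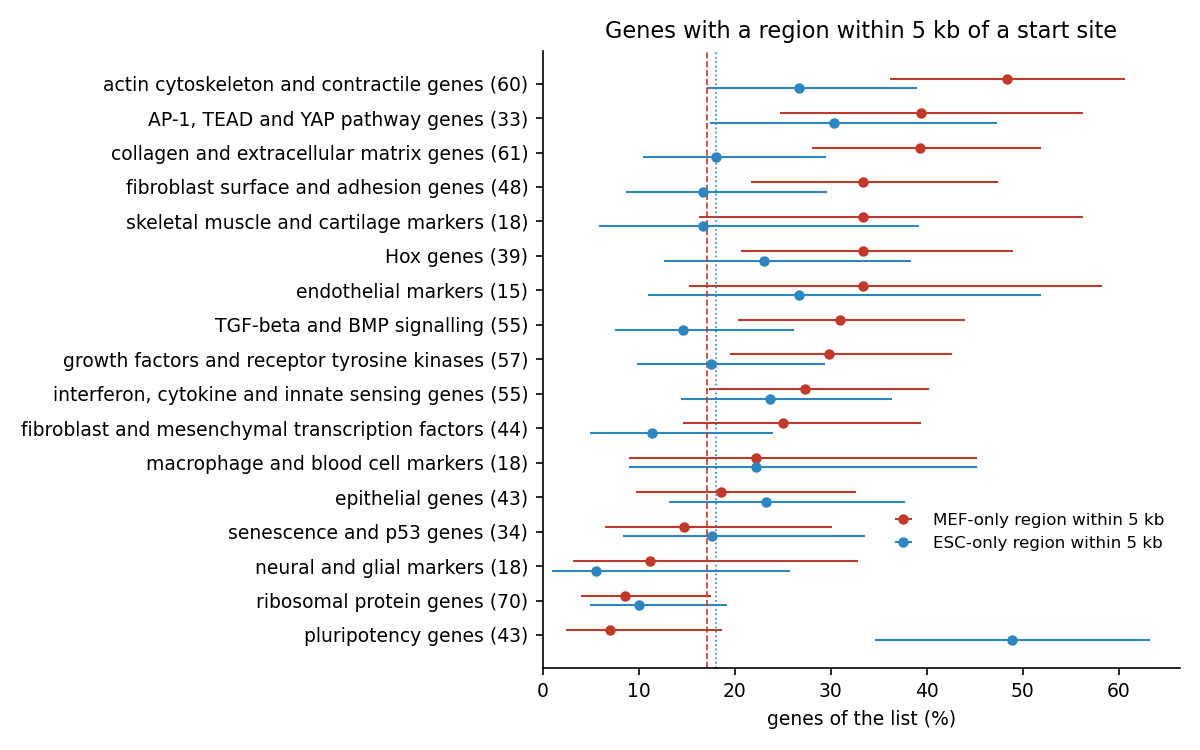
Share (%) of the genes of each list, with the number of genes in brackets, that had a MEF-only region (red) or an ESC-only region (blue) within 5 kb of a start site; bars are 95% Wilson intervals, and the red dashed and blue dotted lines mark the shares among all protein-coding genes, 17.1% and 18%. Actin genes reached 48.3% for MEF-only regions and pluripotency genes 6.98%, while the ESC-only share of pluripotency genes was 48.8%. The intervals treat genes as independent, although neighbouring genes can share a region.

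AP-1 matches were spread over the gene lists. Of the regions beside listed genes, the central window held a match in 10 of 42 for actin genes (23.8%), 8 of 30 for surface genes (26.7%), 5 of 21 for TGF-β genes (23.8%), 4 of 22 for fibroblast transcription factors (18.2%) and 4 of 32 for matrix genes (12.5%), against 22.5% of all MEF-only promoter-near regions. Counts beside the lists for other cells were small. A match was in 0 of 5 regions for endothelial markers, 0 of 5 for macrophage and blood cell markers and 1 of 6 for muscle and cartilage. It was in 1 of 2 for neural and glial markers, 1 of 3 for pluripotency genes and 1 of 8 for epithelial genes. Differences between the lists were not tested.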

How the data were processed

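The deposited files were 4 peak lists without headers, 1 per group, in a broad-peak layout. Per the labels and the study's methods, reads were mapped to mm10 with bowtie2 (Bowtie2 2.2.0 in the submitters' processing notes; the methods name another version), reads of low mapping quality were removed with thresholds that differ between labels and methods, and unique, non-mitochondrial reads were kept. The peak caller is not given in the sources used here, nor is a correction for the transposase offset. For each peak the authors deposited a score, a ratio to background (fold enrichment) and the −log10 q-value used here, beside a −log10 p-value that was not used. The lists carry peak names of replicate 1 and are named as intersections, so score and ratio are read as those of the whole replicate 1 peak, which no source states. Groups came from sample titles, and 0 columns belonged to other series.

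Peaks within 400 bp were merged and compared with 132629 start sites of GENCODE M21 (141730 transcripts). Motifs, GC content and repeat-masked bases were read from the RefSeq GRCm38 sequence in 200 bp around the midpoint of the MEF peak, or of the widest peak where a region had no MEF peak, with windows 1 kb to each side as flanks. Python 3.11.15, numpy 2.4.6, pandas 2.3.3, scipy 1.17.1 and matplotlib 3.10.9 were used, and the merging, distance and motif functions were tested on simulated data. The regions and gene lists were chosen with earlier results of these data known. For each gene list up to 4 genes with the highest-scoring regions were named (some are not reported here), together with the 10 genes with most regions and the 10 highest-scoring genes with a MEF-only start site and no other peak within 5 kb of a start; sequences were at most 2 per list, with a match and without exon bases. No test over samples was possible, since each group had 1 list. A share is called different where the 95% Newcombe interval leaves out 0.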

Additional observations from a re-analysis of the deposited data

How the results depend on the processing

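Of 82 values under 11 other settings, 53 were classed as unchanged. The only difference of shares recomputed was that of AP-1 from distal MEF-only regions, and it did not change sign. Other differences given above were not recomputed. A share or GC content was classed as unchanged inside the reported interval, and a count where it changed by less than 1.5 times. A difference was so classed where it kept its sign over its whole interval, even outside the reported one. The AP-1 differences from distal MEF-only regions of -5.227 (start-site window of 1 kb) and -3.895 (lists of equal length) lay outside the reported -3.606 to -1.404. The AP-1 share remained below that of distal MEF-only regions in all 11, by -5.23 to -2.28 points. A start-site window of 1 kb gave 2520 regions, 11.6% of those near a start, 41.4% over a start site, 1392 genes, an AP-1 share of 19.6%, a GC content of 48.5% and 11.8% with a peak of another list within 2 kb. Start sites of protein-coding genes alone gave 4378 regions, 16.2%, 15.6% over a start, a GC content of 47.5% and 14.8% within 2 kb. Lists of equal length gave 3807 regions, 12.6%, 16.8% over a start, 2003 genes, an AP-1 share of 25.4% and 10.3% within 2 kb. MEF peaks with a −log10 q of at least 2 gave 17.0% of regions near a start, 14.7% over one and an AP-1 share of 23.6%. Merging only overlapping or touching peaks gave 20.6% and 15.5% within 2 kb, and merging within 1000 bp gave 19.7% and 10.0%. Whole regions gave 44.9% with AP-1 and a GC content of 46.1%. In settings chosen after seeing the data, leaving out regions with a peak of another list within 2 kb gave 17.5% of regions near a start, and leaving out those narrower than 200 bp gave 19.5%. The windows and list lengths are by construction what changed the counts.

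No paired analysis was possible because the replicates of each group were combined into 1 list, and leaving out a replicate was not run for the same reason. Read depth is unknown, so a missing peak cannot be told apart from shallow sequencing.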

Other observations

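Noncoding genes also held MEF-only promoter-near regions. A region lay within 5 kb of a start site of 1668 of 10155 long noncoding RNA genes (16.4%, 15.7% to 17.2%), 672 of 6084 small RNA genes (11.05%, 10.3% to 11.9%) and 264 of 2202 miRNA genes (12.0%, 10.7% to 13.4%). Regions beside miRNA genes, named after their values were seen, included one 3293 bp downstream of the Mir133b start with a fold enrichment of 5.14 and one beside Mir30d and Mir30b, 1141 bp and 4920 bp upstream of their starts, with a fold enrichment of 4.69. The annotated start of a miRNA gene is an end of its hairpin and need not be the start of its primary transcript.

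By chromosome, the MEF-only share of promoter-near regions was 124 of 899 (13.8%, 11.7% to 16.2%) on the X chromosome and lay between 18.3% and 22.9% on the autosomes. The Y chromosome had only 3 promoter-near regions, of which 0 were MEF-only. Olfactory receptor genes had a region in 43 of 1135 cases (3.79%), against 17.1% of all protein-coding genes. Of 13 genes of the interferon-inducible p200 family on chromosome 1, singled out after the values were seen, 6 had a region (46.2%, 23.2% to 70.9%). The number of annotated start sites, with which the share of genes with a region went from 8.87% to 38.6%, was not held equal for either family. Besides Ifi204, Ifi205 and Ifi211 these were Ifi207, with a region of score 45 at 4228 bp from a start site, and Ifi203 and Mndal, which share a region of 499 bp and score 40 over a start site.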
